A study of Mus musculus with 6 samples.

Results

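The genes described are 49 members of the DNA replication and G1/S programme. They were taken by symbol, as every row of the count tables whose gene symbol stood on a list of replication proteins. The list was chosen with earlier results of these data known. Shares called among the 49 are therefore descriptions, and no test of the list was made. All 49 had a row among the 23337 gene rows, and all 49 passed the filter on low counts that left 13925 genes for testing. Before S phase, the origin recognition complex, CDC6 and CDT1 load the MCM2-7 helicase onto DNA. At the G1/S boundary CDC45 and GINS activate that helicase, and polymerases, the PCNA clamp and its loader, the single-strand binding protein RPA and the flap nuclease and ligase of the lagging strand copy the genome while deoxynucleotides and new nucleosomes are supplied. Many of these genes are transcribed by E2F factors, which the retinoblastoma proteins hold back in G1, so their messages are commonly read as a sign of cycling cells in neural precursor cultures.

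Nuclear RNA of mouse neural precursor cells was sequenced in 6 libraries, 3 labelled Fmr1 WT (lines 3, 8 and 19) and 3 labelled Fmr1 KO (lines 3, 13 and 16), to compare nuclear RNA between genotypes of Fmr1, which encodes FMRP, an RNA-binding protein. All 6 cultures were of cortical precursors from the forebrain of E13.5 embryos, grown on Matrigel with B27, N2, EGF and basic FGF at 20 ng/ml each and heparin at 5 µg/ml, taken at passage 6 to 7 and about 80% confluency. The lines of a genotype are described as independent. The sources used here do not give the knockout allele, the strain or the number of embryos behind a line. P-values therefore measure the spread between these lines.

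Total counts ran from 18702738 to 26789522 per library, and 16633 to 17248 genes had a count. Levels are given in CPM (read counts scaled to library size) on the TMM scale, which corrects for library composition. Fmr1 (ENSMUSG00000000838.17, X:68678541-68717963 in GRCm38) did not follow every label: it stood at 223.2, 269.8 and 273.6 CPM in WT lines 3, 8 and 19, at 188.2 and 153.4 CPM in KO lines 13 and 16, and at 371.4 CPM in the library labelled KO line 3. Its log2 fold change was -0.10 ± 0.29 (SE; edgeR adjusted p = 0.795), and without that library -0.58 (edgeR adjusted p = 0.00152, within a range of 0.00152 to 0.936 over the alternatives), still with much of the message present. The library labelled KO line 3 also carried high Xist (20508.2 CPM, against 3.34 and 1.67 CPM in KO lines 13 and 16), as did WT lines 3 and 8 but not 19. The Y-linked Eif2s3y stood at 14.2, 3.95 and 317.9 CPM in WT lines 3, 8 and 19 and at 0.428, 144.7 and 134.9 CPM in KO lines 3, 13 and 16, and the labels do not give the sex of the lines. Over the tested genes, the median absolute log2 difference of KO line 3 was 0.23 and 0.27 from the other libraries labelled KO. From the WT libraries it was 0.35 to 0.37. Between KO lines 13 and 16 the difference was 0.14, and between WT lines 0.13 to 0.17. Each result is given for the labels as they stand, with its value without the library labelled KO line 3 where a call changes. KO stands for the libraries so labelled.

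Most of the replication genes were higher in KO. Of the 49, 34 rose (69.4%, where 21.8% of all tested genes rose), 1 fell (Brip1, where 20.4% of all tested genes fell) and 14 passed the test in neither direction, by edgeR's quasi-likelihood test with Benjamini-Hochberg adjustment over all tested genes at 0.05. In 36 of the 49 (73.5%) every KO library lay above every WT library, against 28.6% of all tested genes, and in 2, Brip1 and Gins3, every KO library lay below, against 25.7%. The median log2 fold change was 0.52 over the 49 and 0.01 over all tested genes. These shares and medians describe a list chosen with earlier results known and do not test it. Without the library labelled KO line 3, 32 rose and 2 fell, where 25.8% and 27.8% of all tested genes did, and without WT line 19 as well, 31 rose and 2 fell, where 25.9% and 28.3% did. The differences of the 34 genes ran from 0.40 to 1.12 on the log2 scale, and 1 of them, Cdt1, was at least 2-fold. Summed over the 49, the level was 3936.7, 4331.5 and 3905.2 CPM in WT lines 3, 8 and 19 and 5898.4, 5648.8 and 5994.3 CPM in KO lines 3, 13 and 16. The 2 ranges of sums did not overlap, and the mean rose from 4057.8 ± 237.6 to 5847.1 ± 178.3 CPM (SD, n = 3 each), a ratio of 1.44. In RNA from whole cultures, more cells in S phase and more nuclear message per cell cannot be told apart.

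**Figure D1:**
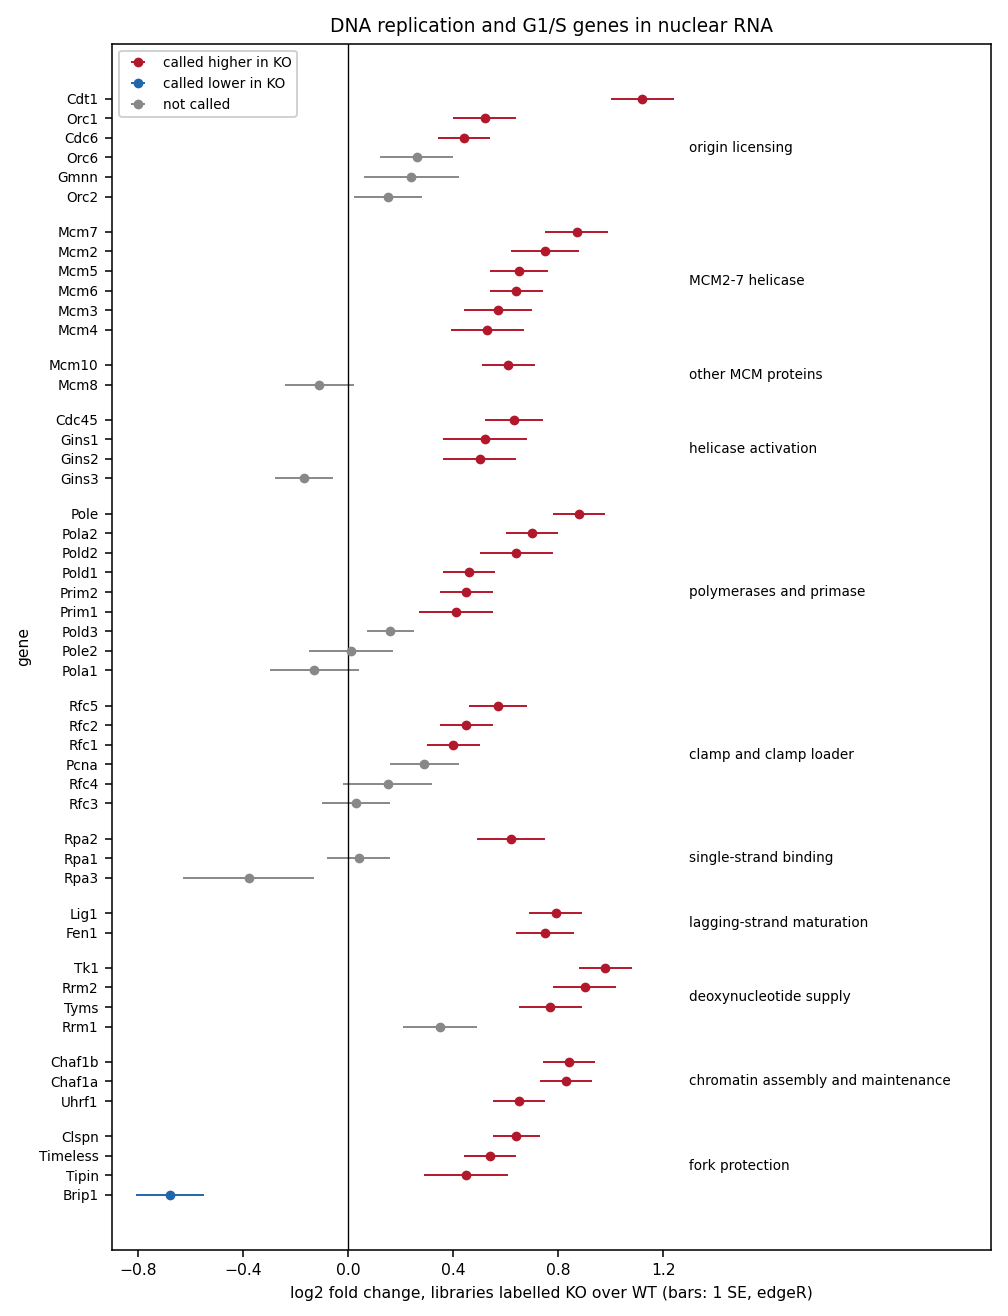
Log2 fold change (x axis) of the 49 genes (y axis), grouped by role, in libraries labelled KO over WT; points are edgeR estimates and bars 1 SE, red for genes called higher, blue for the gene called lower and grey for those not called. Cdt1 lies farthest to the right at 1.12, all 6 genes of the MCM2-7 helicase lie right of 0.5, and Brip1 is the only blue point, at -0.68.

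Markers of cell types moved with genotype too. Their counts are to be read against 21.8% higher and 20.4% lower over all tested genes. The 12 neural stem and progenitor markers were all tested and summed to 8041.3 to 9056.8 CPM in WT and 6009.6 to 7418.5 CPM in KO, with 0 called higher and 2 lower, so markers of the labelled cells were present in both genotypes. Astrocyte markers summed to 492.9 to 830.0 CPM in WT and 182.1 to 229.8 CPM in KO (5 of 8 lower), and oligodendrocyte lineage markers to 685.2 to 766.7 CPM and 1110.4 to 1309.2 CPM (4 of 7 tested higher). Most of that lineage sum was Olig1 and Olig2, with Mbp, Mog and Mag under 1 CPM in every library. Neuronal markers summed to 952.9 to 1093.0 CPM and 1090.1 to 1667.0 CPM (3 of 9 tested higher, 2 lower, Slc17a6 at 0 in every library). Most of the neuronal sum was Map2 (listed as Mtap2), at means of 906.6 CPM in WT and 1288.9 CPM in KO. Tubb3 stood at means of 2.62 and 3.26 CPM and was not called. Besides Map2, the markers called higher were Dcx, from a mean of 0.639 to 11.3 CPM, and Snap25, from 1.04 to 6.63 CPM. Gad2 fell from a mean of 112.2 to 5.93 CPM and Gad1 from 3.54 to 0.822 CPM. Microglial markers stayed at 0.549 to 1.34 CPM over all 6 libraries, with Tmem119 and C1qa at 0, endothelial markers at 7.05 to 12.5 CPM (1 of 4 tested higher, 1 lower) and meningeal fibroblast markers at 4.31 to 17.6 CPM (2 of 3 tested higher). The part of these cell types in the replication genes' levels was not tested.

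Promoters are shown because E2F is the factor class best known for these genes. The part of E2F in the rise was not tested. RefSeq promoters (GRCm38.p6, 250 bases before to 50 after a start) were found for 41 of the 49 genes, 48 promoters in all. Tipin, Prim2, Mcm4, Pole, Gins2, Gmnn, Gins1 and Rfc2 had none. Each was searched on both strands for 4 E2F-like words, TTTCCCGC, TTTGGCGC, TTTCCCGG and TTTGGCGG, no pair of which is the same word read on the other strand. A word stood in 18 of the 48 promoters (37.5%) and in 1092 of all 32851 RefSeq mouse promoters of the same length (3.32%). TTTCCCGC stood in 7 of the 48 (1.07% of all promoters), TTTGGCGC in 7 (0.514%), TTTGGCGG in 5 (0.56%) and TTTCCCGG in 0 (1.28%). Among genes with a promoter, 11 of 27 that rose and 7 of 13 that were not called held a word. A match is a description of letters, not of a site in use.

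The promoters printed are those of the gene with the smallest p in its role where that gene rose and held a word, which was so for 4 roles, and that of Brip1, the gene that fell. Capitals mark the word as it reads on the gene's own strand. Distances are from the RefSeq start. The Mcm7 and Lig1 windows lie wholly inside the GENCODE spans of these genes, which begin further upstream. Cdt1 (chr8:122567765-122568064, plus strand) held TTTGGCGC starting 32 bases after its start. Lig1 (chr7:13278576-13278875, plus strand) held TTTGGCGG read on the other strand, 14 bases after its start. In Mcm7 (chr5:138171834-138172133, minus strand) TTTCCCGC read on the other strand lay 165 bases before the start, and in Clspn (chr4:126556730-126557029, plus strand) TTTGGCGG read on the other strand lay 121 bases before it. None of the 4 words stood in the Brip1 window (chr11:86201144-86201443, minus strand).
Cdt1: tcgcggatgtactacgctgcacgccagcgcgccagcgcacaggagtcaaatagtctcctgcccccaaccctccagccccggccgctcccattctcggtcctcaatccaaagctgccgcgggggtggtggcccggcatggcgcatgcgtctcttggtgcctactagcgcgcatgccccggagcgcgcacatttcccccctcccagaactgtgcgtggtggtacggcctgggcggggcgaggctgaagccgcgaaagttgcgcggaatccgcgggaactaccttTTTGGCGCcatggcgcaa
Lig1: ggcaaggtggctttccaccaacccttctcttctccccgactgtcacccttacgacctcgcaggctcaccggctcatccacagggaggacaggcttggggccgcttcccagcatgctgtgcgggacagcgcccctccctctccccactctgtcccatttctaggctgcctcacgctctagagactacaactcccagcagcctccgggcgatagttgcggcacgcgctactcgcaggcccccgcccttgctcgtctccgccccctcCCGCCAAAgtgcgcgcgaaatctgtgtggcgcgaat
Mcm7: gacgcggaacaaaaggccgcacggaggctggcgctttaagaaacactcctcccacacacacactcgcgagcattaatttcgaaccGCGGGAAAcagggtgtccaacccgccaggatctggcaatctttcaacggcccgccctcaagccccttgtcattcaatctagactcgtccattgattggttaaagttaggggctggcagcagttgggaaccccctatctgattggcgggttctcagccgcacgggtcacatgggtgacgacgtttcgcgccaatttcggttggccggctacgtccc
Clspn: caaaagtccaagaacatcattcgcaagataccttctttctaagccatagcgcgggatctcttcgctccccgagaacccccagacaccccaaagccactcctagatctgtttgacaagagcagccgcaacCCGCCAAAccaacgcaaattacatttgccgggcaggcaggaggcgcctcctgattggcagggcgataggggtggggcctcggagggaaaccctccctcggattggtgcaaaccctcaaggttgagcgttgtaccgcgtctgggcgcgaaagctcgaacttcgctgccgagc
Brip1: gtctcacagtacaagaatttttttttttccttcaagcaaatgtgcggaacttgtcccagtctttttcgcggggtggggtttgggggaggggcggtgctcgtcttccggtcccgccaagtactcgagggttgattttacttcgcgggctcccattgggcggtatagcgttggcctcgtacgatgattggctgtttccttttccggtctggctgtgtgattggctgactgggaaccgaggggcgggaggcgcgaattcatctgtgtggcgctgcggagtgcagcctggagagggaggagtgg

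Counts by role are to be read against the 21.8% of all tested genes that rose. Among the 6 genes of origin licensing, 3 rose. Cdt1 (ENSMUSG00000006585.3, chr8:122568015-122573554), which brings the MCM helicase to the origin, stood at 40.6, 42.8 and 39.7 CPM in WT and at 77.4, 92.2 and 97.2 CPM in KO lines 3, 13 and 16. The WT lines lay within a few CPM of each other and far below the lowest KO line. Its mean rose from 41.0 ± 1.57 to 89.0 ± 10.3 CPM, a log2 fold change of 1.12 ± 0.12 (edgeR adjusted p = 0.000159). Cdc6, the ATPase that works with CDT1, stood at 46.1, 50.2 and 46.6 CPM in WT and 65.4, 63.9 and 64.3 CPM in KO (0.44 ± 0.10, edgeR adjusted p = 0.0065). Orc1, the origin recognition subunit that comes and goes with the cell cycle, stood at 22.7, 26.2 and 25.4 CPM and at 39.2, 35.7 and 31.6 CPM (0.52 ± 0.12, edgeR adjusted p = 0.00871). Neither gene's groups overlapped, but both calls were lost without WT line 3, at edgeR adjusted p = 0.054 (range over alternatives 0.00128 to 0.054) and 0.051 (range 0.000841 to 0.051). The other origin recognition subunits were not called, Orc6 at 0.26 ± 0.14 and Orc2 at 0.15. Geminin (Gmnn), the protein that binds CDT1 and blocks relicensing, was not called either (0.24 ± 0.18, edgeR adjusted p = 0.302). With Xist state as a covariate Orc6 was called higher (0.36, edgeR adjusted p = 0.0149, range over alternatives 0.00417 to 0.703). Of the exon bases of Orc2, 24.0% are shared with Nif3l1, so its reads may be split.

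All 6 genes of the MCM2-7 helicase, the ring that unwinds the fork, rose. Mcm7 (ENSMUSG00000029730.16, chr5:138164583-138172422) stood at 103.9, 118.7 and 99.1 CPM in WT and 176.9, 193.3 and 217.7 CPM in KO, and its mean rose from 107.2 ± 10.2 to 195.9 ± 20.5 CPM (0.87 ± 0.12, edgeR adjusted p = 0.00064). Mcm6 stood at 145.4, 165.7 and 146.4 CPM and at 224.5, 237.3 and 252.4 CPM (0.64 ± 0.10, edgeR adjusted p = 0.00145). Mcm5 stood at 116.1, 122.8 and 109.3 CPM and at 173.1, 171.7 and 200.2 CPM (0.65 ± 0.11, edgeR adjusted p = 0.00161). WT line 8 was the highest WT line and KO line 16 the highest KO line for each of these subunits, and the groups did not overlap. The log2 fold changes of Mcm2, Mcm3 and Mcm4 were 0.75, 0.57 and 0.53, the last with edgeR adjusted p = 0.0707 without WT line 3 (range over alternatives 0.00258 to 0.0707). The 6 subunits sit in the ring in equal number, and their levels per kilobase of exon were also close. The highest subunit was 1.11 to 1.38 times the lowest within any library. The mean level over the 6 subunits was 34.8, 41.5 and 35.3 CPM per kb in WT and 54.4, 57.7 and 65.4 CPM per kb in KO, where Mcm7 was the highest subunit in all 3 libraries.

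The other MCM proteins parted. Mcm10, which helps to start the helicase, stood at 69.0, 75.0 and 66.9 CPM in WT and 106.5, 105.7 and 110.5 CPM in KO (0.61 ± 0.10, edgeR adjusted p = 0.00139). Mcm8, which works with MCM9 in recombination repair and is no part of the replicative ring, stood at 36.0, 34.4 and 32.4 CPM in WT and at 36.8, 28.8 and 29.6 CPM in KO. KO line 3 lay above the WT range and the other KO lines below it, and the gene was not called (-0.11 ± 0.13, edgeR adjusted p = 0.497).

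Of the helicase activators, 3 of 4 rose. Cdc45 stood at 39.8, 43.7 and 34.8 CPM in WT and 63.4, 60.1 and 59.0 CPM in KO (0.63 ± 0.11, edgeR adjusted p = 0.0027), with a wide gap between the groups. Gins2 stood at 15.1, 14.7 and 11.8 CPM and at 19.4, 18.5 and 21.2 CPM (0.50 ± 0.14, edgeR adjusted p = 0.0162), and 70.7% of its exon bases are shared with Gse1. Gins1 had 462, 364 and 249 counts in WT, a mean of 16.3 ± 2.53 CPM, and stood at 26.8, 23.0 and 20.5 CPM in KO (0.52 ± 0.16, edgeR adjusted p = 0.0247). The Gins1 call was lost without WT line 3, WT line 19 or KO line 13, and that of Gins2 without WT line 19. Without WT line 19 and KO line 3 together, Gins1 was at 0.30 and not called. Gins3, which encodes another subunit of the same GINS complex, was lower in every KO library than in any WT library and not called (-0.17 ± 0.11, edgeR adjusted p = 0.248).

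**Figure D2:**
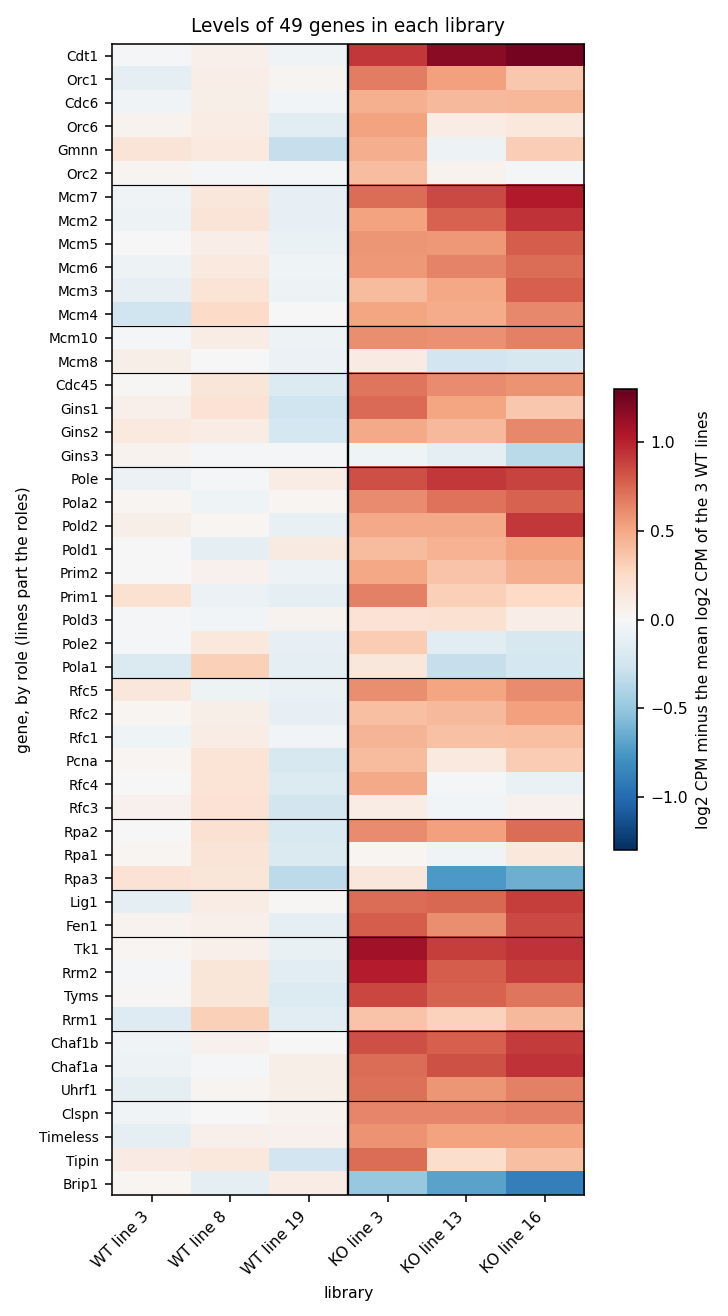
Level of each of the 49 genes (y axis, by role, with lines between roles) in each of the 6 libraries (x axis), as log2 CPM minus the mean log2 CPM of the 3 WT lines; red is higher and blue lower. Most rows turn red in all 3 KO libraries, and Brip1 and, more slightly, Gins3 are blue in all 3. Rpa3, Mcm8, Pole2 and Pola1 are blue in KO lines 13 and 16 but not in KO line 3.

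Polymerases and primase summed to 783.5 ± 11.3 CPM in WT and 1080.7 ± 16.6 CPM in KO (SD, n = 3 each), and 6 of the 9 genes rose. Pole (ENSMUSG00000007080.14, chr5:110286306-110337474), the catalytic subunit of the leading-strand polymerase epsilon, stood at 149.0, 154.4 and 167.5 CPM in WT and 280.4, 296.7 and 287.3 CPM in KO. No KO value came near a WT value, and the mean rose 1.84-fold, from 156.9 ± 9.5 to 288.1 ± 8.21 CPM (0.88 ± 0.10, edgeR adjusted p = 0.000214). Pole2, an accessory subunit of the same polymerase, was not called (0.01 ± 0.16, edgeR adjusted p = 0.963). Pola2, the accessory subunit of polymerase alpha, which makes primers with primase, stood at 80.0, 76.0 and 80.4 CPM and at 121.0, 128.2 and 133.8 CPM (0.70 ± 0.10, edgeR adjusted p = 0.000672). Pold2, an accessory subunit of the lagging-strand polymerase delta, stood at 27.2, 26.1 and 24.0 CPM and at 36.3, 36.1 and 48.5 CPM (0.64 ± 0.14, edgeR adjusted p = 0.0063). KO line 16 was the highest of all 6 for both genes, and the groups did not overlap. The catalytic Pold1 and the primase genes Prim2 and Prim1 rose by 0.46, 0.45 and 0.41, and the Prim1 call was lost without WT line 8, WT line 19, KO line 3 or KO line 13. Without KO line 3 Prim1 was at 0.28 (edgeR adjusted p = 0.0504, range over alternatives 0.000848 to 0.139), and without WT line 19 as well at 0.21. Pold3 (0.16) and Pola1 (-0.13) were not called. Pola1 encodes the catalytic subunit of polymerase alpha and is the X-linked member (ENSMUSG00000006678.6, X:93304767-93632155), and with Xist state as a covariate its log2 fold change was -0.04.

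Of the 6 genes of the clamp and its loader, 3 rose. Rfc5 stood at 48.3, 41.8 and 41.1 CPM in WT and 66.3, 62.3 and 66.7 CPM in KO (0.57 ± 0.11, edgeR adjusted p = 0.00301). Rfc2 stood at 77.3, 79.8 and 70.5 CPM and at 99.3, 101.3 and 110.0 CPM (0.45, edgeR adjusted p = 0.00786). Rfc1, the large subunit of the loader, stood at 114.2, 127.0 and 115.8 CPM and at 161.2, 154.6 and 155.4 CPM (0.40, edgeR adjusted p = 0.00947). The groups were apart in all of them, and the Rfc1 call was lost without WT line 3 (edgeR adjusted p = 0.0745, range over alternatives 0.00108 to 0.0745). Pcna, the clamp itself, was not called (0.29 ± 0.13, edgeR adjusted p = 0.105), nor were Rfc4 (0.15) and Rfc3 (0.03). With Xist state as a covariate Pcna was called higher (0.37, edgeR adjusted p = 0.0201, range over alternatives 0.00222 to 0.343). The annotation names a pair of Pcna pseudogenes, Pcna-ps1 and Pcna-ps2, that could share its reads.

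Of the 3 genes of the single-strand binding protein RPA, 1 rose. Rpa2 stood at 34.9, 39.9 and 30.3 CPM in WT and 53.4, 50.4 and 57.7 CPM in KO, with no overlap (0.62 ± 0.13, edgeR adjusted p = 0.00457). Rpa1, the large subunit that holds the DNA, stood at 164.3, 181.3 and 141.6 CPM and at 164.8, 156.9 and 177.7 CPM, and the ranges lay on top of each other (0.04 ± 0.12, edgeR adjusted p = 0.831). Rpa3 stood at 24.1, 23.6 and 16.7 CPM and at 23.5, 12.6 and 13.6 CPM (-0.38 ± 0.25, edgeR adjusted p = 0.243). KO line 3 lay within the WT range for Rpa3 and the other KO lines below it. Without KO line 3 the value for Rpa3 was -0.72, a call lower (edgeR adjusted p = 0.0028, range over alternatives 5.72e-05 to 1).

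Both genes of lagging-strand maturation rose, and so did all 3 of chromatin assembly and maintenance. Lig1, the ligase that joins Okazaki fragments, stood at 110.3, 127.6 and 120.7 CPM in WT and 197.8, 200.6 and 222.2 CPM in KO (0.79 ± 0.10, edgeR adjusted p = 0.000543). Fen1, the nuclease that trims their flaps, stood at 29.0, 29.4 and 25.9 CPM and at 48.4, 42.8 and 50.9 CPM (0.75 ± 0.11, edgeR adjusted p = 0.00104). Neither overlapped between genotypes, but 84.1% of the exon bases of Fen1 are shared with Gm10143 and Tmem258, so its reads are uncertain. The large subunits of the nucleosome assembly factor CAF-1 rose side by side. Chaf1b stood at 37.7, 40.4 and 38.9 CPM and at 69.6, 67.0 and 73.2 CPM (0.84 ± 0.10, edgeR adjusted p = 0.000276). Chaf1a stood at 74.8, 77.6 and 82.6 CPM and at 129.7, 139.0 and 149.9 CPM (0.83 ± 0.10, edgeR adjusted p = 0.000374), with 33.6% of its exon bases shared with Ubxn6. KO line 16 was the highest for both. Uhrf1, which brings the maintenance DNA methyltransferase to the new strand, stood at 221.0, 246.9 and 253.6 CPM and at 395.1, 358.3 and 378.6 CPM (0.65 ± 0.10, edgeR adjusted p = 0.00135), again with the groups apart.

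Deoxynucleotide supply held some of the widest gaps, with 3 of 4 genes higher. Tk1 (ENSMUSG00000025574.13, chr11:117815526-117826092), the cytosolic thymidine kinase of S phase, stood at 64.0, 65.5 and 58.8 CPM in WT and 133.2, 117.2 and 120.2 CPM in KO. The mean rose 1.97-fold, from 62.7 ± 3.51 to 123.5 ± 8.49 CPM (0.98 ± 0.10, edgeR adjusted p = 0.000176), and the lowest KO line was well above the highest WT line. Rrm2 (ENSMUSG00000020649.11, chr12:24708241-24714146), the small, cell-cycle-limited subunit of ribonucleotide reductase, stood at 162.3, 182.2 and 148.1 CPM and at 331.7, 282.8 and 304.1 CPM (0.90 ± 0.12, edgeR adjusted p = 0.00049). Tyms, the thymidylate synthase, stood at 47.2, 51.9 and 41.3 CPM and at 84.8, 79.1 and 75.4 CPM (0.77 ± 0.12, edgeR adjusted p = 0.00109). KO line 3 was the highest library for each of these genes. The annotation names a Tyms pseudogene, Tyms-ps, that could share reads. Rrm1, the large subunit of the reductase, was the gene just outside the threshold (0.35 ± 0.14, edgeR adjusted p = 0.074), and without WT line 8 it was called (edgeR adjusted p = 0.0135, range over alternatives 0.0135 to 0.276).

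Fork protection held the single gene that fell. Clspn, the adaptor that passes the fork stall signal to CHK1, stood at 105.2, 108.6 and 112.1 CPM in WT and 168.1, 168.7 and 170.5 CPM in KO, the smallest relative spread in KO among the 49 (108.6 ± 3.43 to 169.1 ± 1.26 CPM, 0.64 ± 0.09, edgeR adjusted p = 0.000791). Timeless stood at 105.3, 120.3 and 118.9 CPM and at 171.8, 165.3 and 164.3 CPM (0.54 ± 0.10, edgeR adjusted p = 0.00268). Its partner Tipin was the gene just inside the threshold (0.45 ± 0.16, edgeR adjusted p = 0.0457), and its call was lost when any library but KO line 13 was left out. Without KO line 3 Tipin was at 0.30 (edgeR adjusted p = 0.0552, range over alternatives 0.000138 to 0.177), and without WT line 19 as well at 0.19. Brip1 (ENSMUSG00000034329.16, chr11:86058138-86201193), a helicase of the Fanconi pathway that binds BRCA1, stood at 68.6, 61.8 and 71.8 CPM in WT and 47.9, 41.5 and 36.4 CPM in KO. Every KO library lay below every WT library. Its mean fell from 67.4 ± 5.1 to 42.0 ± 5.77 CPM, a log2 fold change of -0.68 ± 0.13 (edgeR adjusted p = 0.00294), and it was called lower under all 16 alternatives run at that threshold.

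**Figure D3:**
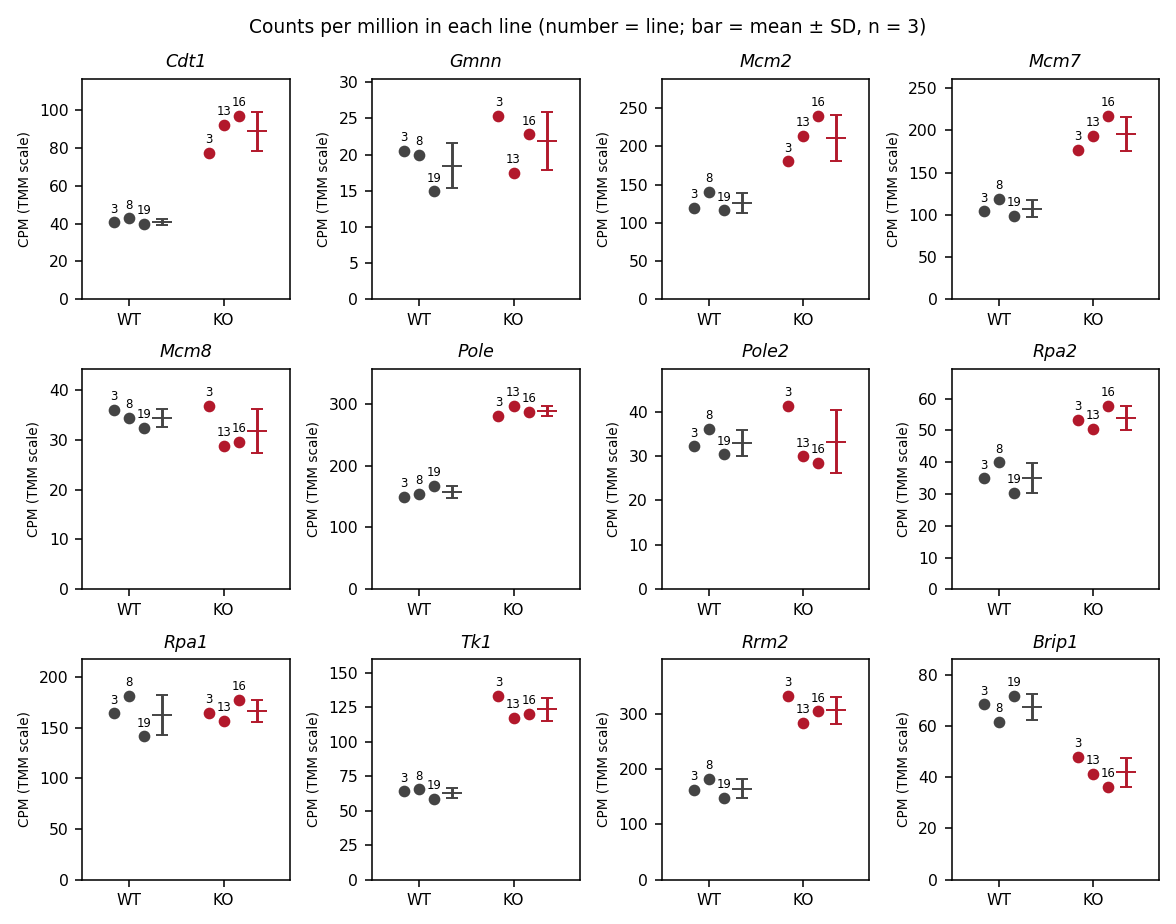
CPM on the TMM scale (y axis, from 0) in each line (numbered points) for 12 of the genes, chosen after their values were seen, in WT (grey) and KO (red), with the mean and SD of 3 lines beside the points. Cdt1, Mcm7, Pole, Tk1 and Rrm2 show 2 separate clouds, Rpa1 and Gmnn overlapping ones, and Brip1 a lower KO cloud.

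GC content moved with the result. Over the 49 genes the GC content of the longest coding transcript and the log2 fold change had a Spearman correlation of 0.68, against 0.19 over the 13787 tested genes with a value. Genes share the same libraries, so these are descriptions. Transcripts of genes that rose had a median GC content of 51.1% (40.8% to 60.7%), and those not called 45.3% (40.4% to 49.8%). Brip1, at 41.3%, lay near the low end. Of the 24 genes with the lower GC content 11 rose, and of the 25 with the higher GC content 23 rose. With a smooth trend on GC content and length removed from each library, a correction chosen after seeing the data, the 34 genes stayed called and Orc2, Orc6, Pcna, Rfc4 and Rrm1 were added, 39 in all, and Brip1 remained lower. In that fit 27% of all tested genes rose and 25.7% fell. In that fit 16 of the 24 genes of lower GC content rose, as did 23 of the 25 of higher GC content, and the correlation over the 49 was 0.45. The part of GC content in what remained was not tested.

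**Figure D4:**
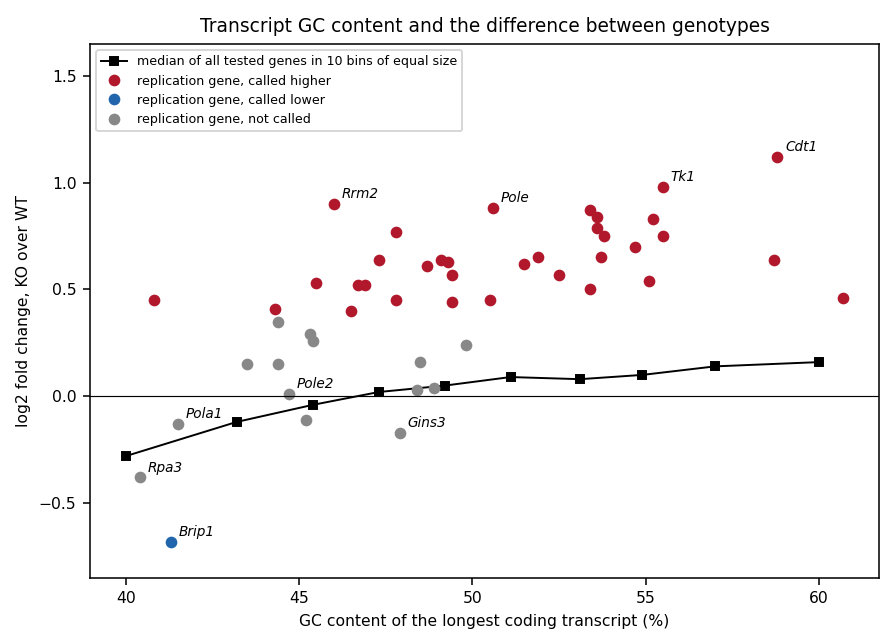
GC content in percent (x axis) and log2 fold change, KO over WT (y axis), for the 49 genes (points, red called higher, blue called lower, grey not called) and, as black squares joined by a line, the medians of all tested genes with a value in bins of equal size. The black line climbs from -0.28 to 0.16, the red points lie above it, and Brip1 lies below it.

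Other genes of the same pathways, from lists that left out the 49, moved the same way in part. No test between lists was made, and the shares are to be read against 21.8% higher and 20.4% lower over all tested genes. Of 28 other fork and licensing genes 12 rose and 1 fell (median log2 fold change 0.35). Among those that rose were Ticrr (listed as 5730590G19Rik) at 0.88 and Mtbp at 0.88, partners in loading CDC45, the helicase gene Recql4 at 0.82 and the alternative clamp loader gene Chtf18 at 0.81. Pold4, the smallest subunit of polymerase delta, fell from 15.9 ± 1.98 to 8.06 ± 0.853 CPM (-0.98 ± 0.15, edgeR adjusted p = 0.00114). Of 14 other nucleotide supply genes 8 rose and 0 fell (median 0.40), Cad, the first enzyme of pyrimidine synthesis, at 0.94 and Dut, the dUTPase, at 0.92, with Shmt1 and Ctps at 0.42 each. Of 13 other replication-coupled chromatin genes 8 rose and 0 fell (median 0.45), with the maintenance DNA methyltransferase gene Dnmt1 at 0.84, the FACT subunit gene Ssrp1 at 0.64, and the histone chaperone genes Asf1b and Nasp at 0.59 and 0.57.

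Of 17 genes of the E2F, DP and retinoblastoma families and of their MuvB partner complex 8 rose and 1 fell (median 0.37), and of the 13 that are not MuvB genes 7 rose and 1 fell (median 0.38). The activator E2f1 rose by 0.59, the repressors E2f7 and E2f8 by 0.80 and 0.62, and the partner Tfdp1 by 0.69. Rb1, the retinoblastoma gene that restrains E2F, stood at 103.5, 113.7 and 118.4 CPM in WT and 87.8, 53.8 and 47.4 CPM in KO, lower in every KO library (-0.83 ± 0.21, edgeR adjusted p = 0.0125), and KO line 3 was nearest to WT. The call was lost without KO line 13, at edgeR adjusted p = 0.0506 (range over alternatives 3.1e-07 to 0.0506). Of 14 replication checkpoint genes 4 rose (median 0.17), Cdc25a at 0.60, Rad9a (listed as Rad9) at 0.47 and Cul4a at 0.36 among them. The fork kinase Atr stood at 157.7, 177.1 and 153.4 CPM in WT and 136.4, 91.1 and 78.4 CPM in KO and fell by 0.68 on the log2 scale (edgeR adjusted p = 0.0195), a call lost without WT line 8 or KO line 13 (edgeR adjusted p = 0.07 and 0.0748, range over alternatives 1.31e-06 to 0.0748). The Cul4a call was lost without WT line 3.

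Of 28 recombination and Fanconi genes, the partners of Brip1, 14 rose and 1 fell (median 0.36). Fancc rose by 0.73, Exo1 by 0.72 and Xrcc3 by 0.68, all opposite to Brip1. The gene that fell, Mcmdc2 (listed as 6030422M02Rik), was at 0.815 to 2.33 CPM, and its call was lost under 8 alternatives. Of 30 mitosis genes 12 rose and 3 fell (median 0.24), with the spindle gene Tacc3 at 1.06, the condensin gene Ncapd2 at 0.81 and the chromosomal passenger genes Aurkb and Incenp at 0.80 and 0.73. Cenpf (-0.47), Hmmr (-0.73) and Anln (-0.64) fell. The Cenpf call was lost without WT line 8, WT line 19, KO line 13 or KO line 16 and that of Hmmr without KO line 13. Replication-dependent histone genes, taken by the form of their symbols, had few counts and went the other way. Messages of this class are typically made in S phase and end without a poly(A) tail. The counts do not show whether the messages in each row had that form. Only 16 of 68 rows had enough counts to test, of which 2 rose and 9 fell (median -0.94). The 68 rows summed to 63.8, 70.2 and 61.3 CPM in WT and 49.7, 36.9 and 45.6 CPM in KO, and 9 of them were at 0 in every library. Any poly(A) selection is not given, so these low counts do not show histone output in S phase. Hist2h2be fell from 22.1 ± 1.17 to 12.5 ± 0.627 CPM, and Hist1h2ac, Hist1h2be and Hist1h3d, at means of 1.12, 1.32 and 1.01 CPM in WT, fell to 1 to 6 counts a library in KO. Hist1h4i (0.85) and Hist3h2ba (2.10) rose, both under 5 CPM, and the Hist1h4i call was lost without WT line 8 or WT line 19.

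**Figure D5:**
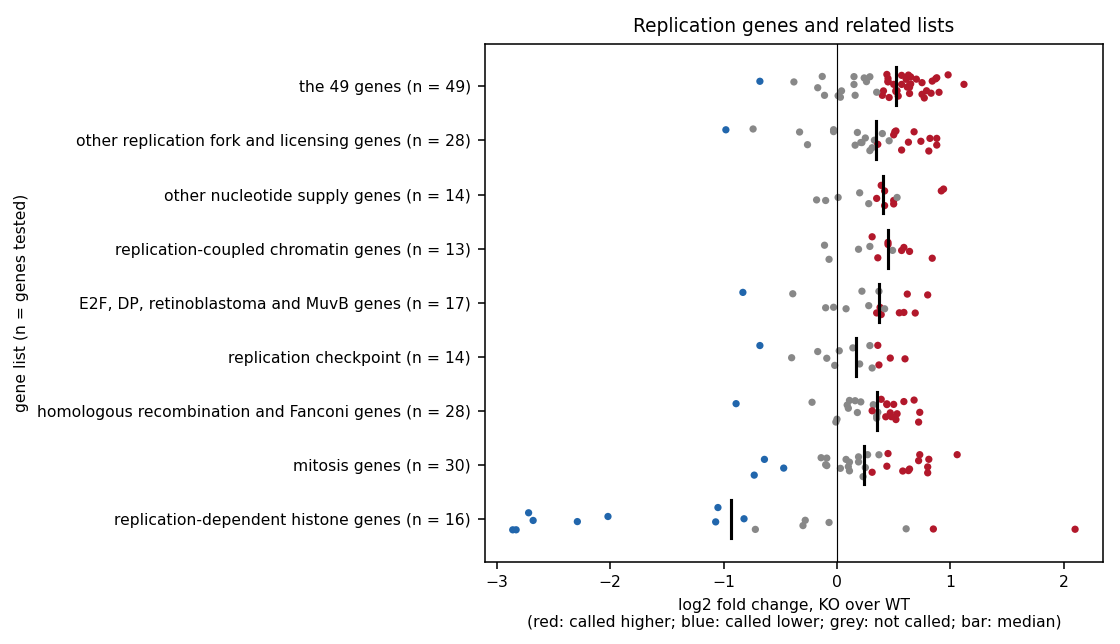
Log2 fold change, KO over WT (x axis), of the tested genes of each list (y axis, with the number tested); red points were called higher, blue lower and grey neither, and the black bar is the median. The bar of the 49 genes stands at 0.52, those of the other replication lists between 0.17 and 0.45, that of mitosis at 0.24 and that of histones at -0.94.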

How the data were processed

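Nuclear RNA was measured in 6 libraries, 3 lines of each genotype. The values are the whole-number counts the authors deposited, 23337 symbols a library, not normalized. Build mm10 and the tools STAR, cutadapt 1.14, DESeq2 and HTSeq 0.7.2 are named, per the submitters' processing notes. The sources used here do not give their roles, the annotation, the strand setting or any poly(A) selection, so reads of overlapping genes on opposite strands cannot be told apart. No row lacked a gene name.

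The test was edgeR's (version 4.0.16, under R 4.3.3; filterByExpr, TMM factors, robust quasi-likelihood fit on genotype, 4 residual degrees of freedom before pooling across genes, two-sided, Benjamini-Hochberg over 13925 genes, threshold 0.05). SE was derived from the F statistic. The fit was tested on simulated data. 3 counts were worth 0.112 to 0.1604 CPM. Gene positions and exon overlaps came from GENCODE (GRCm38) and promoters from RefSeq. Levels per kb use the union of exons.

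The members and all lists were chosen with earlier results of these data known. Values in every library are given for up to 3 genes a role by smallest p and for any gene called lower, and from each related list up to 4 genes by smallest p plus those called against its direction. A gene that met this rule is not reported here. Alternatives were DESeq2 1.42.0 size factors and Wald test, upper-quartile factors, library size alone, 2 other filters, limma-voom (limma 3.58.1), Xist state (1000 CPM) as a covariate, a threshold of 0.10, leaving out each line, leaving out WT line 19 with KO line 3, and, chosen after seeing the data, removal of GC and length trends by loess (span 0.5).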

Additional observations from a re-analysis of the deposited data

How the results depend on the processing

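No paired analysis was possible because the genotypes share a single line number, 3. The count of the 49 genes called higher stayed at 34 under the other size factors, filters and tests, was 36 with the Xist covariate, 35 at a threshold of 0.10, 31 without WT line 19 and KO line 3, and 39 once GC and length trends were removed, and ran from 28 to 33 when 1 line was left out, lowest without WT line 3. In all, 26 of the 34 genes were called under all 16 alternatives other than the threshold of 0.10. The count called lower was 1 to 2 with 1 line left out, and 2 without WT line 19 and KO line 3, where Rpa3 joined Brip1. The median log2 fold change stayed between 0.49 and 0.56. Over all genes, 3040 were higher and 2844 lower, 1994 to 3666 and 2120 to 3944 with 1 line left out.

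Direction changed only for genes that were not called with all 6 libraries. With 1 line left out, log2 fold changes ran from -0.27 to 0.04 for Pola1, -0.17 to 0.12 for Pole2, -0.08 to 0.12 for Rfc3, -0.05 to 0.26 for Rfc4, -0.05 to 0.12 for Rpa1 and -0.58 to 0.14 for Fmr1. Without WT line 19 and KO line 3 they were -0.00 for Orc2, -0.01 for Gmnn, -0.23 for Pole2, -0.11 for Rfc3, -0.14 for Rfc4 and -0.04 for Rpa1. With GC and length trends removed they were 0.06 for Pola1, -0.03 for Rpa1, 0.00 for Rpa3 and 0.13 for Fmr1. Pole2 was at -0.00 with upper-quartile factors and -0.01 with library size alone and with limma-voom. The causes were not tested.

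With 3 lines a genotype, 1 of uncertain label, a p that misses the threshold does not show equal levels. The counts behind the 49 genes ran from 218 to 8822 a library, and the median coefficient of variation between lines was 7.56% in WT and 7.04% in KO, a spread that counting error can match for the genes with the fewest counts. Nuclear RNA does not give protein levels or the share of cells in S phase, which were not analysed here.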

Other observations

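Some partner genes whose products work together were not at the same ratio in both genotypes. The pairs were chosen after their values were seen, so the ratios of CPM are descriptions. They are not corrected for gene length, so they compare libraries and not the level of a gene with that of its partner. Cdt1 stood at 1.98, 2.14 and 2.66 times its inhibitor Gmnn in WT lines 3, 8 and 19 and at 3.04, 5.28 and 4.27 times in KO lines 3, 13 and 16. Rrm2 stood at 0.707, 0.569 and 0.628 times Rrm1 in WT and at 0.989, 0.885 and 0.88 times in KO. In both pairs every KO library lay above every WT library. Pole stood at 4.63, 4.28 and 5.5 times Pole2 in WT and at 6.8, 9.92 and 10.1 times in KO, and Pola2 at 0.999, 0.67 and 0.951 times Pola1 and at 1.2, 1.72 and 1.71 times. The ratio of Rpa2 to Rpa1 was 0.213, 0.22 and 0.214 in WT and 0.324, 0.321 and 0.325 in KO, nearly constant within each genotype.

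Levels per kilobase of exon ranged widely among the 49 genes. Rrm2 was the highest in WT at a mean of 74.9 CPM per kb and in KO at 139.6 CPM per kb, followed in WT by Pcna at 67.0 and Uhrf1 at 65.6 CPM per kb. Orc1 stood at 8.23 CPM per kb. Gins2 stood at 3.56 CPM per kb, but 70.7% of its exon bases are shared with Gse1, so it was not ranked.

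Within KO, line 3 was the highest line for 25 of the 49 genes, line 16 for 22 and line 13 for 2. Within WT, line 8 was the highest line for 32 of the 49 genes and line 19 the lowest for 30. The origin of these line differences was not tested.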
